A study of Drosophila melanogaster with 2 samples.

Results

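The genes examined here encode the proteins of the small (40S) subunit of the cytosolic ribosome, and the measurement was where the DNA-binding protein CG1603 sat around their transcription start sites (TSSs) in Drosophila embryos. Members were the protein-coding genes whose symbol is RpS followed by a digit, together with sta (stubarista) and RpS2, which is also named sop (string of pearls). This gave 39 genes of 13945 protein-coding genes outside the Y chromosome. CG1603 encodes a zinc finger protein, and the flies carried a stable transgene for CG1603 with GFP at its C-terminal end. Chromatin immunoprecipitation with sequencing (ChIP-seq) was done on whole embryos of mixed sex aged 0 to 16 h, with sonicated fragments of 200 to 800 bp and an antibody to GFP according to the description, although the antibody field names CG1603. There was 1 group with 2 samples, which the labels number as biological replicates 2 and 3, and both carried the transgene. Whole embryos mix all cell types of these stages, so a peak cannot be assigned to a tissue. No untreated or untagged peak list was analysed here, and peak lists hold no read counts, so sequencing depth is unknown. A gene was called bound when the summit of a peak, its highest point, lay within 500 bp of the TSS of 1 of its protein-coding transcripts.

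The small subunit reads the messenger RNA. Its proteins fold the 18S ribosomal RNA, form the head, body and platform of the particle and line the decoding centre and the messenger RNA channel. Most of the genes are transcribed at high levels in every growing cell, and in Drosophila the loss of 1 copy of many of them causes the Minute phenotype of slow development and short, thin bristles. Several genes have an a and a b copy, and in some of these pairs, such as RpS10 and RpS19, 1 copy is known for expression enriched in the germline. Ribosomal protein genes of flies often start transcription at a polypyrimidine initiator, called TCT, in place of the common Initiator. Other elements known from promoters of housekeeping genes are the DNA replication-related element (DRE), which the factor DREF binds, and Motif 1, which M1BP binds.

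Stretches of 100 bases around the most upstream TSS of 15 members are printed so that the starts of the a and b copies can be read against each other, RpS15Aa without its partner, followed by those of 6 genes that carry the strongest peaks or a named element. Each holds 70 bases before the TSS and 30 from it on, and was read on the strand of the gene from the RefSeq genome sequence of build dm6. Capitals mark matches to the searched letters, which were TATCGATA (the DRE), GGTCACACT (part of Motif 1), CGATA (the core bound by BEAF-32, which also lies within TATCGATA), CAGCTG (an E-box) and, on the sense strand near the TSS alone, CTTTT (a string that the TCT initiator allows). All but CTTTT were searched on both strands, so TATCG marks CGATA on the other strand.
RpS10a, chr3R:27652690-27652789, plus strand: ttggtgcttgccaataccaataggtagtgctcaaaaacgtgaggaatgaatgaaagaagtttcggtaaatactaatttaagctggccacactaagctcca
RpS10b, chrX:19597961-19598060, plus strand: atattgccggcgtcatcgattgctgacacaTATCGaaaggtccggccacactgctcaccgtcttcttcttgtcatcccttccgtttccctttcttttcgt
RpS14a, chrX:7933672-7933771, plus strand: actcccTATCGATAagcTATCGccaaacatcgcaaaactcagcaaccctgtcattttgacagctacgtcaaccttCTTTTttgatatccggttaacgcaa
RpS14b, chrX:7934828-7934927, plus strand: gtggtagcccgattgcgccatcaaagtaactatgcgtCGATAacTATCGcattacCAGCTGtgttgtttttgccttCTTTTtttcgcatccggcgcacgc
RpS15Aa, chrX:13337676-13337775, minus strand: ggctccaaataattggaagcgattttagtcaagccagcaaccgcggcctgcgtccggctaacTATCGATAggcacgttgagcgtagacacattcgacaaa
RpS19a, chrX:16637824-16637923, plus strand: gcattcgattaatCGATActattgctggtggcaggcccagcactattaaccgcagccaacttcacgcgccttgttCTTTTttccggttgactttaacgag
RpS19b, chr3R:23933501-23933600, minus strand: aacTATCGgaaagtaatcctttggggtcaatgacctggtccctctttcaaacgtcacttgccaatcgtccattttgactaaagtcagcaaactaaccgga
RpS28a, chr3R:30022619-30022718, minus strand: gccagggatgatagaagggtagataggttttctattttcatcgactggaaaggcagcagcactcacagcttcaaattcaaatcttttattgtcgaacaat
RpS28b, chrX:9554553-9554652, plus strand: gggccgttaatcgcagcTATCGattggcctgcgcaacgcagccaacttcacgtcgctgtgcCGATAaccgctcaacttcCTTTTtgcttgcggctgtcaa
RpS27A, chr2L:10408282-10408381, plus strand: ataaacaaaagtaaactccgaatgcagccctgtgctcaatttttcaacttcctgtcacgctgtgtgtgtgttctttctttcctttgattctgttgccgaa
RpS3A, chr4:67178-67277, minus strand: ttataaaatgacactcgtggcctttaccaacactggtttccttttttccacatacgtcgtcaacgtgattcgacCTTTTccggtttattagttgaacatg
RpS25, chr3R:11216258-11216357, minus strand: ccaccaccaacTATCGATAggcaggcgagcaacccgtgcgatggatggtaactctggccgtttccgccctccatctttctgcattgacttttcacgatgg
RpS12, chr3L:13023282-13023381, plus strand: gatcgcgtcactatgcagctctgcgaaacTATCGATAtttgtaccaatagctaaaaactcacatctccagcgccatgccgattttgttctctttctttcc
RpS9, chr3L:9511502-9511601, minus strand: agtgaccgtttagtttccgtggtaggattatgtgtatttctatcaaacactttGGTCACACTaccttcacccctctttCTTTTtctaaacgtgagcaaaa
sta, chrX:1483384-1483483, minus strand: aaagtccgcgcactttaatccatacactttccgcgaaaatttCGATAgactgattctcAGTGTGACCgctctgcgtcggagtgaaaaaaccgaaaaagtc
The starts of RpS14a, RpS14b, RpS19a, RpS28b, RpS3A and RpS9 carry CTTTT. A DRE stands in the printed stretches of RpS14a, RpS15Aa, RpS25 and RpS12, and Motif 1 in those of RpS9 and sta. The DRE of RpS10b starts 77 bp upstream of its TSS, just before the printed stretch.

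Of the 39 small subunit genes, 34 (87.2%) were bound in the reproducible list, which holds 8963 peaks, and 35.3% of all protein-coding genes were. The cytosolic large subunit genes, with symbols RpL or RpLP, stood close to this, with 49 of 54 bound (90.7%). The mitochondrial small subunit genes, whose proteins work in the ribosome of the organelle, had 15 of 26 (57.7%). The 5 small subunit genes without a reproducible promoter summit included RpS10a, RpS18, RpS28a and RpS28-like. All 9 small subunit genes on the X chromosome, all 4 on 3L and the 1 on chromosome 4 were bound, as were 5 of 6 on 2L, 6 of 7 on 2R and 9 of 12 on 3R. The share of all genes bound on each chromosome was not computed, so these counts are not read as a difference between chromosomes. Genes with several TSSs have more chances of a call. Of members with 2 or more TSSs, 19 of 20 were bound, and of members with 1 TSS, 15 of 19, beside 53.1% and 28.9% of all genes with as many TSSs. These shares are a description, and no test was made.

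Each replicate list and the pooled list holds exactly 30000 peaks, so ranks by the authors' signal can be set beside each other between replicates. In the whole pooled list 35 members had a promoter summit, against a background of 47.1% of all genes. In the whole list of replicate 2, 36 members had one, against 46.8%, and in that of replicate 3, 37 members had one, against 50.5%. Restricted to the strongest 8963 peaks, replicate 2 had 33 members, against 34.4%, and replicate 3 had 36, against 37.5%. In these shorter lists 33 members were found in both replicates, none in replicate 2 alone, and RpS9, RpS18 and RpS28a in replicate 3 alone. Over all protein-coding genes, 4457 were found in both shorter lists, 341 in replicate 2 alone and 769 in replicate 3 alone. Across the 35 members with a promoter peak in both whole lists, the signals of the replicates had a Spearman rho of 0.956, and across 6041 genes of the whole genome a rho of 0.930. These points share both libraries and the peaks of 1 protein, so the values describe how alike the 2 lists are. Of the 34 bound members, 26 (76.5%) ranked better in replicate 3 and 8 in replicate 2, and 57.7% of bound genes in all ranked better in replicate 3. The strongest peak of a gene in each list was compared, and it need not be the same peak. RpS6 counts for replicate 2 through a distant summit, while its nearer one ranked 6451 in replicate 2 and 4122 in replicate 3.

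**Figure D1:**
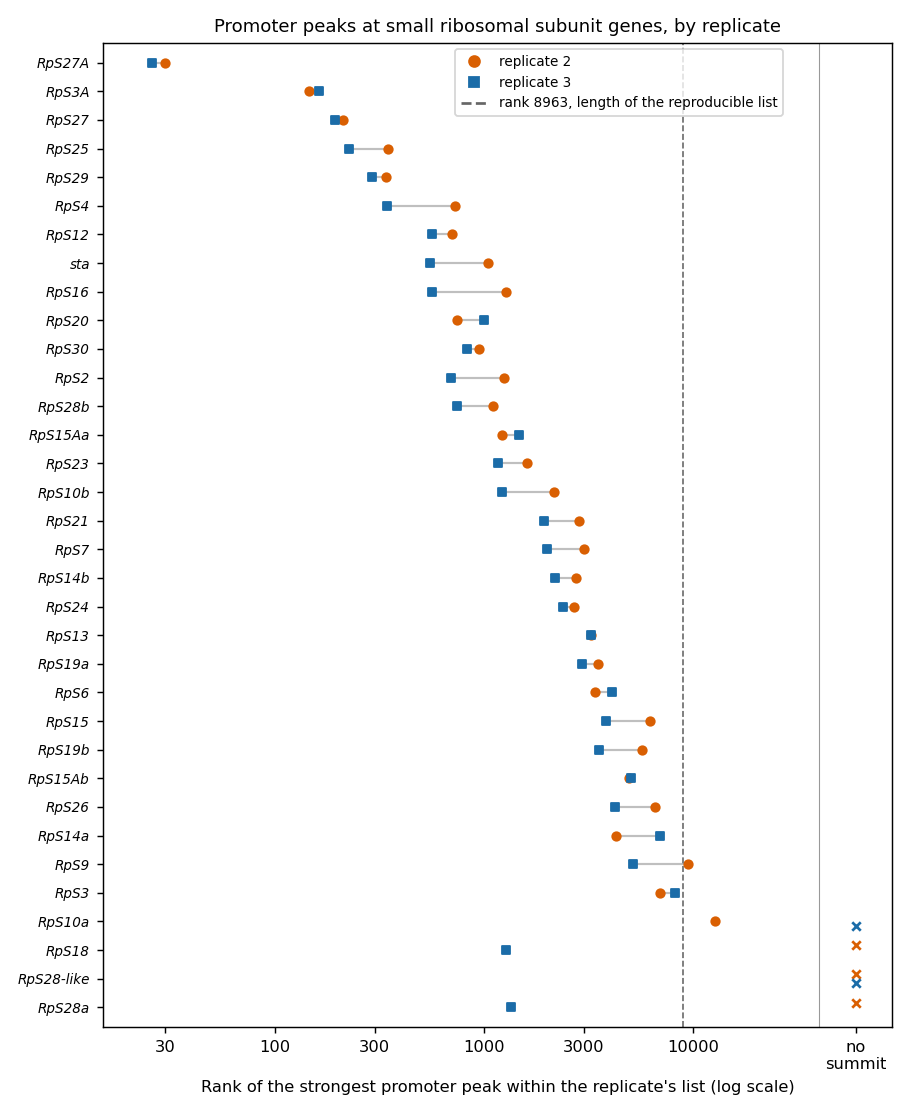
Rank of the strongest promoter peak of small subunit genes in replicate 2 (orange circles) and replicate 3 (blue squares), on a log axis where low ranks are strong peaks; crosses at the right mark genes with no summit within 500 bp, and the dashed line is rank 8963. Most genes have close ranks in both replicates, from 30 and 26 at RpS27A to 6961 and 8177 at RpS3, and RpS18 and RpS28a have a peak in replicate 3 alone.

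The strongest promoter peak of the bound small subunit genes had a median rank of 1935.5 in the reproducible list, with quartiles of 837.5 and 4293. The bound large subunit genes had a median rank of 925, the bound mitochondrial small subunit genes 2843, and all bound genes 3209. The small subunit genes thus stood, as a group, at stronger peaks than the bound genes as a whole and at weaker peaks than the large subunit genes. Among the strongest 500 peaks were those of 6 small subunit genes (15.4%), 15 large subunit genes (27.8%) and 2.96% of all genes. Among the strongest 1000 were those of 13 small subunit genes (33.3%), 25 large subunit genes (46.3%) and 5.6% of all genes. By rank 5000, 29 small subunit genes had been reached (74.4%), beside 47 large subunit genes (87%) and 25% of all genes.

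**Figure D2:**
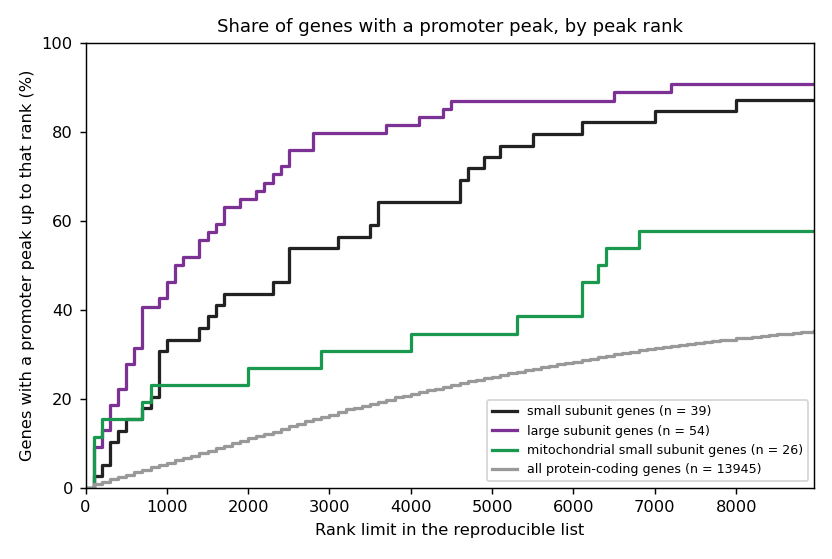
Percentage of genes with a promoter summit up to each rank of the reproducible list, for 39 small subunit genes (black), 54 large subunit genes (purple), 26 mitochondrial small subunit genes (green) and all 13945 protein-coding genes (grey). The black curve lies below the purple one over most of the axis and ends at 87.2%, beside 90.7%, 57.7% and 35.3%.

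The strongest member was RpS27A, which encodes a ribosomal protein made as a fusion with ubiquitin. Its peak, at chr2L:10408116-10408625, had a signal of 12479 at rank 30 in the pooled list, 6794 at rank 30 in replicate 2 and 5699 at rank 26 in replicate 3, and the summit lay 59 bp upstream of the TSS. The same summit was also 59 bp from the TSS of Ip259, a gene on the same strand, so the peak cannot be given to 1 of these genes. The printed start of RpS27A held none of the searched letters. RpS3A, which encodes protein eS1 of the platform and is the 1 member on chromosome 4, followed. Its peak, at chr4:67053-67530, had a signal of 3153 at rank 156 in the pooled list, 1780 at rank 145 in replicate 2 and 1384 at rank 162 in replicate 3, with the summit 86 bp upstream. No other gene had a TSS in reach of that summit.

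RpS27, RpS25 and RpS29 complete the 5 strongest. At RpS27, which encodes the zinc-binding protein eS27, the peak at chr3R:25247325-25247773 had a signal of 2592 at rank 204 in the pooled list, 1354 at rank 211 in replicate 2 and 1244 at rank 195 in replicate 3. Its summit was 19 bp upstream of the TSS, and 125 bp from the TSS of Nup37, a nucleoporin gene that points the other way. At RpS25, which encodes eS25 of the head, the peak at chr3R:11216210-11216590 had a signal of 2028 at rank 283 in the pooled list, 934 at rank 349 in replicate 2 and 1097 at rank 226 in replicate 3. The summit was 83 bp upstream, beyond the DRE of the printed stretch, which starts 59 bp upstream. That summit was also 165 bp from the TSS of another gene, on the other strand. RpS29 encodes the small zinc-binding protein uS14, and its peak at chr3R:9777856-9778168 had a signal of 1863 at rank 316 in the pooled list, 947 at rank 339 in replicate 2 and 924 at rank 293 in replicate 3. All 5 genes were among the strongest 500 peaks of each list.

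The next members held ranks between 490 and 927 in the reproducible list. RpS4 (eS4) was at 490 and RpS12 at 634, a gene that in Drosophila is also needed for the elimination of Minute cells beside wild-type cells. The gene sta, which encodes uS2 at the back of the head and body, was at 767, RpS16 (uS9, whose tail reaches towards the P-site transfer RNA) at 834, RpS20 (uS10) at 848 and RpS30, made as a fusion with a ubiquitin-like protein, at 878. RpS2, which encodes uS5 at the entry of the messenger RNA channel, was at 895, and RpS28b at 927. These 8 genes and the 5 strongest are the 13 members among the strongest 1000 peaks. In a middle range came RpS15Aa at 1352, RpS23 (uS12 of the decoding centre) at 1408, RpS10b at 1608, RpS21 (whose loss in flies leads to overgrown tissue) at 2263, RpS7 at 2406, RpS14b at 2462 and RpS24 at 2465. RpS13 was at 3411, RpS19a at 3506, RpS6, the phosphorylation target of S6 kinase, at 3534, RpS15 (uS19) at 4561, RpS19b at 4630 and RpS15Ab at 4817.

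Among the weakest bound members were RpS26, RpS14a, RpS9 and RpS3. RpS26 encodes eS26 at the exit of the messenger RNA channel, and its peak had a signal of 274 at rank 5073 in the pooled list, 107 at rank 6589 in replicate 2 and 164 at rank 4254 in replicate 3. RpS9, which encodes uS4 near the entry of the messenger RNA channel, had a signal of 193 at rank 6962 in the pooled list, 68.7 at rank 9500 in replicate 2 and 137 at rank 5177 in replicate 3. It is thus 1 of the genes that the reproducible list holds although replicate 2 alone ranked it below 8963. RpS3 encodes uS3, which helps to open messenger RNA structure at the channel entry, and is the site of a classical Minute. Its peak had a signal of 164 at rank 7913 in the pooled list, 101 at rank 6961 in replicate 2 and 84.2 at rank 8177 in replicate 3. For RpS3 the summits differed, at 153 bp upstream in the pooled list, 160 bp upstream in replicate 2 and 31 bp upstream in replicate 3.

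Members with a counterpart in bacterial ribosomes and members without one gave similar shares and median ranks, but their ranges differed. Of the 18 genes for proteins found in all domains of life, 16 were bound, with a median rank of 2000.5 and quartiles of 883.25 and 4977. Of the 21 without a bacterial counterpart, 18 were bound, with a median rank of 1935.5 and quartiles of 526 and 3403.75. Ranks ran from 316 to 7913 with a counterpart and from 30 to 5073 without one. The split was drawn from background knowledge with results known. A summit within 100 bp of the TSS was present at 12 of the 16 genes with a counterpart and 17 of the 18 without one.

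The summits sat close to the start of transcription. Of 34 bound members, 29 (85.3%) had a summit within 100 bp of a TSS, and 62% of all bound genes did. The share was 81.6% for the bound large subunit genes and 60% for the bound mitochondrial small subunit genes. The median position of the summit nearest to each gene was 24 bp upstream of the TSS (-24 bp) for the small subunit genes, -44 bp for the large subunit genes and -61 bp for all bound genes. In all, 39 reproducible summits lay at the 34 genes, of which 24 were upstream of the transcribed region, 14 in an untranslated exon and 1, at RpS15, in coding sequence. Of the 29 summits within 100 bp, 18 were upstream of the TSS, 10 downstream and 1, at RpS15Aa, on it. The 5 bound members without a near summit included RpS3, RpS14a, RpS19b and RpS20. The peaks had a median width of 297 bp, and all reproducible peaks 246 bp.

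**Figure D3:**
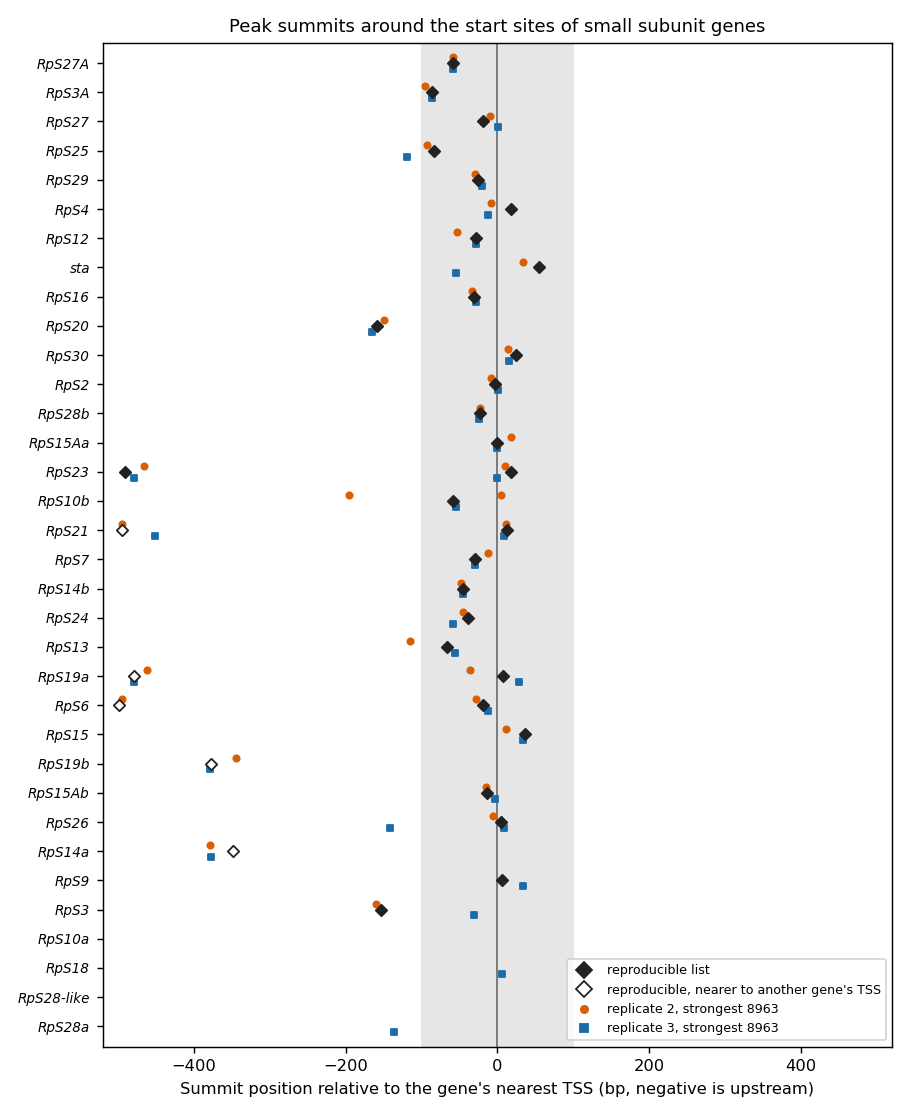
Position of each summit within 500 bp of a TSS of small subunit genes, in bp from the nearest TSS of that gene with negative values upstream, for the reproducible list (diamonds, open where the TSS of another gene is nearer) and for the strongest 8963 peaks of replicate 2 (orange) and replicate 3 (blue). The grey band spans 100 bp to either side of the TSS and holds a diamond at most genes, while all diamonds beyond 340 bp are upstream.

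A second set of 8 summits lay more than 340 bp away, a limit chosen after the positions were seen, and all 8 were upstream. For 6 of them the TSS of another gene was nearer. The summit 479 bp upstream of RpS19a was 1 bp from the TSS of Rok and the one 498 bp upstream of RpS6 was 51 bp from that of bys, which encodes bystin, itself a factor for making the small subunit. The summit 377 bp upstream of RpS19b was 5 bp from CG5854, the one 348 bp upstream of RpS14a was 43 bp from Dhdds, and the one 494 bp upstream of RpS21 was 202 bp from CG3104. RpS19a, RpS21 and RpS6 had a near summit of their own as well, so RpS14a and RpS19b were the 2 members bound only through a summit nearer to a neighbour. A distant summit of RpS23, 491 bp upstream at rank 2498, had no other TSS in reach, and a further summit lay 18 bp downstream of that start. Altogether 32 of the 34 (94.1%) had a summit nearest to their own TSS, and 78.8% of all bound genes did. A summit shared with another gene was present at 15 (44.1%) and at 52% of all bound genes.

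At RpS6 the strongest summit in the window was not the nearest one. The stronger peak in its window, with a signal of 386 at rank 3534, was the one beside bys, and its own peak, 19 bp upstream of its TSS, had a signal of 270 at rank 5150. In replicate 2 the summit beside bys stood at rank 3388 and the nearer one, 28 bp upstream, at rank 6451. In replicate 3 the summit 12 bp upstream of RpS6 stood at rank 4122, and the peak of bys, at rank 3444, had its summit outside the window of RpS6.

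The 6 pairs of a and b copies were compared in every list. Both copies were bound in 3 pairs, RpS14, RpS15A and RpS19, and 1 copy in the other 3, among them RpS10b and RpS28b. The count rests on the distance and the list: RpS14a and RpS19b were bound only through the summits nearer to Dhdds and CG5854. Both copies were bound in 1 pair within 250 bp or with the nearest TSS alone, in 0 pairs in the strongest 50% of the reproducible list and in 5 pairs in each whole replicate list. Genes in pairs were bound in 9 of 12 cases (75%), and genes outside pairs in 25 of 27 (92.6%). The coding sequences of the copies were 69.2% to 98.2% identical, while their promoters, from 250 bp before to 50 bp after the TSS, were 48.3% to 53.6% identical. Aligned promoters of 735 other pairs of members had a median identity of 50.7%, from 44.1% to 57.5%, and all 6 values of the a and b copies lay within that range. The longest run of bases shared by both promoters of a pair was 8 to 11 bp.

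RpS10a and RpS10b encode eS10. RpS10b had a signal of 687 at rank 1608 in the pooled list, 292 at rank 2167 in replicate 2 and 396 at rank 1220 in replicate 3. RpS10a had a peak in replicate 2 alone, with a signal of 47.6 at rank 12711 and the summit 191 bp upstream, and none in the pooled list or replicate 3. The nearest reproducible summit to RpS10a was 2559 bp downstream of its TSS. Of the printed starts, that of RpS10b holds a CGATA match and that of RpS10a holds none of the searched letters.

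RpS28a and RpS28b encode eS28 near the exit of the messenger RNA channel. RpS28b had a signal of 950 at rank 927 in the pooled list, 451 at rank 1105 in replicate 2 and 513 at rank 740 in replicate 3, with the summit 23 or 24 bp upstream in each. RpS28a had a peak in replicate 3 alone, with a signal of 375 at rank 1342, whose summit was 136 bp upstream of RpS28a and 58 bp from the TSS of Axn, which encodes the Wnt pathway scaffold Axin. Neither replicate 2 nor the pooled list had a peak that overlapped it. A reproducible summit at rank 5080 lay 511 bp downstream of the TSS of RpS28a, just outside the distance used. RpS28-like, a further gene matched by the symbol rule, was in a like position, with a reproducible summit at rank 7329 that lay 508 bp downstream, and summits 512 bp downstream at rank 10842 in replicate 2 and 520 bp downstream at rank 6139 in replicate 3. It was the only member with no promoter summit in any list.

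RpS14a and RpS14b encode uS11 of the platform, with coding sequences that are 97.8% identical. They stand side by side on the X chromosome with TSSs 1156 bp apart. RpS14b had a signal of 513 at rank 2462 in the pooled list, 245 at rank 2760 in replicate 2 and 277 at rank 2196 in replicate 3, with summits 45 to 48 bp upstream. The strongest peak near RpS14a, the one beside Dhdds, had a signal of 253 at rank 5457 in the pooled list, 170 at rank 4264 in replicate 2 and 101 at rank 6995 in replicate 3. A peak at the RpS14a start itself, 22 bp upstream, was listed in replicate 3 alone, with a signal of 65.6 at rank 10116. In the promoter windows the order of the DRE is the opposite, with a match at RpS14a and none at RpS14b.

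RpS15Aa and RpS15Ab encode uS8, and their coding sequences are 98.2% identical. RpS15Aa had a signal of 772 at rank 1352 in the pooled list, 427 at rank 1215 in replicate 2 and 355 at rank 1477 in replicate 3. RpS15Ab had a signal of 289 at rank 4817 in the pooled list, 147 at rank 4926 in replicate 2 and 141 at rank 5036 in replicate 3. Both summits were within 20 bp of the TSS in every list, and both promoters held a DRE, but RpS15Ab shared its summit with Lsm10, whose TSS was 22 bp away. RpS19a and RpS19b encode eS19, whose human relative is mutated in Diamond-Blackfan anaemia. RpS19a had a signal of 389 at rank 3506 in the pooled list, 202 at rank 3519 in replicate 2 and 222 at rank 2941 in replicate 3. RpS19b, with no summit nearer to its own TSS, had a signal of 300 at rank 4630 in the pooled list, 126 at rank 5720 in replicate 2 and 190 at rank 3572 in replicate 3.

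**Figure D4:**
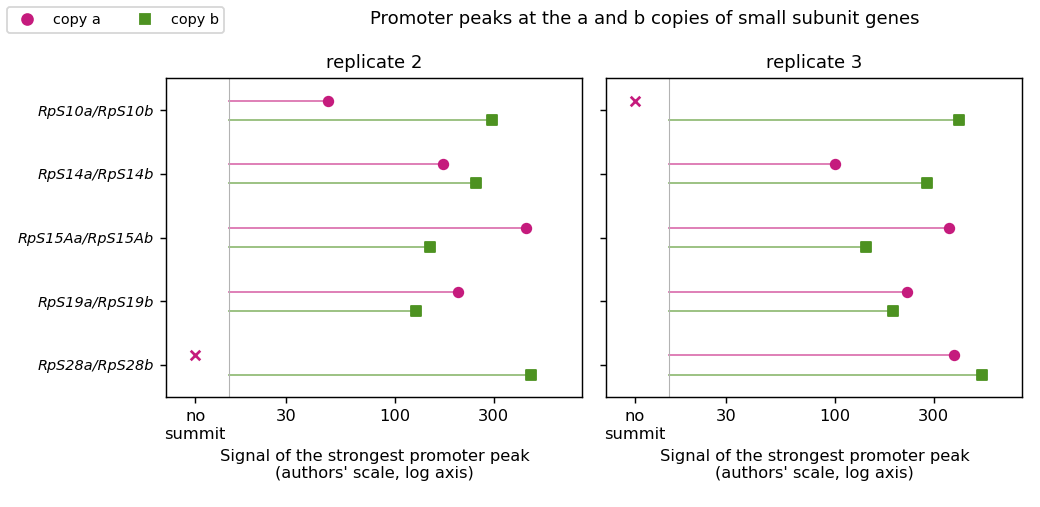
Signal of the strongest promoter peak at copy a (pink circles) and copy b (green squares) of 5 pairs, in replicate 2 (left) and replicate 3 (right), on a log axis of the authors' scale; crosses mark copies with no summit within 500 bp. In both replicates RpS15Aa and RpS19a stand above their b copies and RpS10b, RpS14b and RpS28b above their a copies. The peaks drawn for RpS14a and RpS19b, and for RpS28a in replicate 3, had summits nearer to the TSS of another gene.

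RpS18, like RpS28a, had a strong peak in replicate 3 alone. It encodes uS13, which contacts the large subunit from the head. Replicate 3 had a peak with a signal of 387 at rank 1275 and a summit 6 bp downstream of the TSS, and neither replicate 2 nor the pooled list had a peak that overlapped it. The nearest summits in those lists were 523 bp upstream at rank 29628 in replicate 2 and 536 bp upstream at rank 27183 in the pooled list. Of the strongest 2000 peaks of replicate 3, 37 had no overlapping peak in replicate 2 and 30 none in the pooled list, with 23 lacking both. Of the strongest 2000 of replicate 2, 6 lacked a peak in replicate 3 and 11 one in the pooled list. The source of these unmatched peaks was not tested.

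The DRE was in the promoter window of 13 small subunit genes (33.3%), beside 27.8% of large subunit genes, 15.4% of mitochondrial small subunit genes and 9.36% of all genes. All 13 were bound, but so were 34 of the 39 members in all, and the share bound among all genes with a DRE was not computed. The 13 had a median rank of 1608, against 2263 for the 21 bound members without a DRE. The ranges overlapped (283 to 5457 and 30 to 7913). Some of these ranks are of summits nearer to another gene, at RpS14a (5457) and RpS6 (3534) with a DRE and at RpS19b (4630) without one. Within 50 bp of the summit a DRE was found in 9 of 39 member windows (23.1%) and in 8.87% of 4193 reproducible summits at promoters. The 9 members were RpS6, RpS7, RpS10b, RpS12, RpS15Aa, RpS15Ab, RpS24, RpS25 and RpS29. The CGATA core, which every DRE also counts for, was in 20 of these windows (51.3%, against 35.3%) and in 29 promoters (74.4%, against 47.4% of all genes).

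GGTCACACT of Motif 1 was near 4 summits (10.3%, against 5.06%), among them those of RpS9, RpS19b and RpS23. The summit of RpS19b is the one 5 bp from the TSS of CG5854, and the promoter window of RpS19b holds no match. Of the 39 summit windows, 6 are at summits nearer to the TSS of another gene. GGTCACACT was in 4 promoters (10.3%, against 6.05% of all genes), those of RpS9, RpS15, RpS23 and sta. The CAGCTG E-box was within 50 bp of 5 summits (12.8%, against 9.11%). Within 100 bp it was again at 5 summits (12.8%), but against 16.7%, so the direction depends on the window. It was in 6 promoters, a share of 15.4% beside 5.56% of large subunit genes, 50% of mitochondrial small subunit genes and 17.7% of all genes. CTTTT, with its C between 5 bp before and 10 bp after the most upstream TSS, was at 12 members (30.8%), 31.5% of large subunit genes and 3.03% of all genes. Over all annotated TSSs of a gene it was at 23 members (59%), 53.7% of large subunit genes and 4.39% of all genes, and at 0 of the 26 mitochondrial small subunit genes. Bound members with it had a median rank of 2263 and those without it 1608. Of the 5 unbound members, RpS18 is among those that carry it, and none has a DRE or Motif 1 in the promoter window. Unbound members are few, 4 members in all have Motif 1, and whether an element goes with binding was not tested. A match of letters does not show a site in use.

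**Figure D5:**
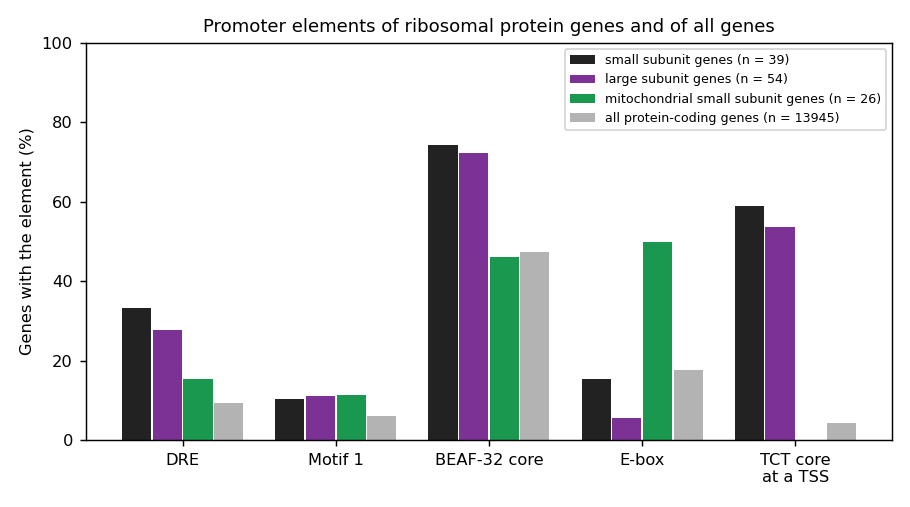
Percentage of small subunit genes (black), large subunit genes (purple), mitochondrial small subunit genes (green) and all protein-coding genes (grey) with each element in the promoter window, or at any TSS for the TCT core (CTTTT). The DRE is in 33.3% of small subunit promoters and 9.36% of all promoters, and the TCT core is at 59% and 4.39%.

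Genes for 14 factors that help to make or dock on the small subunit were listed from background knowledge with results known. Of these, 9 were bound (64.3%), beside 35.3% of all protein-coding genes. RIOK2, a kinase of late subunit maturation, was strongest at rank 559, with ranks of 625 in replicate 2 and 512 in replicate 3. Fib, the fibrillarin methyltransferase, was at rank 578, and Rack1, a scaffold on the head of the subunit, at rank 1537. The genes hoip, Nop56, bys, Nop60B, nop5 and wcd followed, the last at rank 8562. LTV1, Mat89Ba, Nop17l, RIOK1 and Tsr1 had no reproducible promoter summit, although LTV1 had a peak in replicate 2 at rank 4082, RIOK1 one in replicate 2 at rank 24118, and Mat89Ba one in replicate 2 at rank 17105 and in replicate 3 at rank 10458.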

How the data were processed

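CG1603-GFP ChIP-seq was measured in whole embryos, in 1 group with biological replicates 2 and 3. The authors called peaks per replicate and on pooled replicates against a control, per the deposited description files, and positions refer to build dm6, per the labels. The aligner and peak caller were not given in the sources used here. Each deposited peak carries a signal value, on a scale that is not stated, and a summit offset. Signal ranked peaks within a list. The reproducible list was the strongest 8963 peaks of the pooled list, so a peak in each replicate is not required.

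TSSs came from protein-coding transcripts of the Ensembl 115 annotation (BDGP 6.54), and sequence from the RefSeq dm6 genome. Python 3.11.15 and Biopython 1.88 were used, and calls, distances and motif counts were checked on simulated peaks. No test was made, since there is 1 group. The members and lists were chosen with earlier results of these data known, and the 340 bp limit and 2 alternatives were chosen after seeing the data. Some genes are not reported here by name, and all counts and medians still include them. Other members are named, with full values for the 5 strongest and 5 weakest bound members, unbound members, a and b copies and members whose call differed between replicates. RpS6, RpS12 and others are described further by position or function, chosen after their values were seen.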

Additional observations from a re-analysis of the deposited data

How the results depend on the processing

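The count of bound small subunit genes, 34 as reported, was between 25 and 37 over the alternatives. The 25 came from the strongest 50% of the reproducible list and the 37 from the whole list of replicate 3. Of all 13945 protein-coding genes, 3211 and 7036 were bound in these settings, and 4919 as reported. Single-gene calls were the same in 441 combinations of gene and setting, were lost in 15 and were gained in 12. With 250 bp RpS14a and RpS19b were among those that lost their call, and with the nearest TSS alone RpS14a and RpS19b did. With 1000 bp, or with any base of the peak, RpS28a and RpS28-like gained one. With 1 replicate left out, 33 (without replicate 3) and 36 (without replicate 2) members were bound. RpS9 was lost without replicate 3, and RpS18 and RpS28a were gained without replicate 2. Pairs with both copies bound, 3 as reported, numbered 1 at 250 bp, 5 in each whole replicate list, 0 in the strongest 50% of the reproducible list and 1 with the nearest TSS alone. Of the 26 mitochondrial small subunit genes, 15 were bound as reported, 9 in that strongest 50% and 8 with the nearest TSS alone. Of all genes, 3211 and 3875 were bound in these 2 settings. The median rank of bound members was 1409.5 to 2167 without a replicate. With 2 alternatives chosen after seeing the data it was 2263 without the gene on chromosome 4, and 31 members had an own-nearest summit within 200 bp. The share of all genes with such a summit was not computed, so the 31 has no background beside it. The median rank of all bound genes was 3145 at 1000 bp, 3332 with the most upstream TSS, 3359 with the nearest TSS and 3272 to 3292.5 without a replicate. The median summit position of members was -19 bp at 250 bp and with the most upstream TSS, -21 bp at 1000 bp and -30 to -26 bp without a replicate, and that of all bound genes -51 bp at 250 bp. GGTCACACT was near 7 summits at 100 bp to either side, CTTTT was at 23 members over any TSS, and rho was 0.928 with the peak nearest to the reproducible summit. The cause of these changes was not tested. No paired analysis was possible because there is 1 group. Depth is unknown, the lists are capped, no untagged control list was analysed, and replicate spread rests on 2 samples.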
